A study of Homo sapiens with 6 samples.

Results

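Cells clear foreign compounds and many of their own lipids, steroids and reactive aldehydes in steps. Phase I enzymes, chiefly cytochromes P450 with aldehyde and keto-steroid oxidoreductases, add or expose a reactive group, and phase II enzymes then couple that group to glucuronic acid, sulfate or glutathione so that the product dissolves in water and can be excreted. The kidney's proximal tubule carries several of these enzymes and secretes the conjugates into urine. Here 91 genes of these families, of 35007 in the table, were followed. They were chosen by symbol: cytochromes P450 of families CYP1 to CYP4 (34 genes), aldehyde dehydrogenases ALDH3 (4), the AKR1C aldo-keto reductases (4), UDP-glucuronosyltransferases UGT1 and UGT2 (19), sulfotransferases (12) and glutathione transferases (18). The annotation calls 88 of them protein coding and the other 3, CYP2D7, GSTT2 and GSTA8P, pseudogenes or a pseudogene in some people.

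The cells were HK-2, an immortalised line from human kidney proximal tubule labelled as wild type. Of 6 RNA sequencing libraries, 3 came from cells transfected with a plasmid overexpressing circAASS, by its name a circular RNA of AASS, and 3 from cells given the empty vector. Both groups had 1% oxygen for 24 h and then 12 h of reoxygenation, per the sample labels (the design text gives 24 h after the treatment), so every difference is between plasmids in reoxygenated cells and none is a response to oxygen. A single line was used and no label gives separate cultures, so p-values measure the spread between libraries, which may be technical.

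Levels are RPKM, read numbers divided by gene length and library size. Libraries held 47384879 to 58179563 reads with circAASS and 45148425 to 52470055 with empty vector. AASS itself was at 0.836, 0.977 and 0.827 RPKM with circAASS and at 1.2, 1.38 and 1.1 RPKM with empty vector (adjusted p = 0.0677); gene-level reads do not measure the circle. All 10 markers of renal epithelium were tested and summed to 385 to 426 RPKM with circAASS and 350 to 364 with empty vector, although 3 of them rose (PAX8, KRT8 and KRT18) and 3 fell (CDH6, EPCAM and GGT1). Of 8 measured markers of mature proximal tubule, 7 averaged under 0.1 RPKM in both groups, among them the nuclear receptor gene HNF4A and the endocytic receptor genes LRP2 and CUBN. UMOD, a gene of another tubule segment, is also among the 7. Most listed markers of the labelled cell type were thus near 0 in both groups, while SLC5A2 had reads. The list summed to 1.83 to 2.14 RPKM with circAASS and 3.59 to 4.32 with empty vector, nearly all of it SLC5A2. SLC5A2 fell (log2 fold change -0.93, limma adjusted p = 0.00114). Exons of other genes lie over 40.7% of it, and their reads could have been counted for it. Hepatocyte markers, of which 1 of 7 (SERPINA1) rose, summed to 30.6 to 32.9 RPKM with circAASS and 18.7 to 22.5 with empty vector. Fibroblast markers summed to 4.17 to 4.49 and 3.69 to 4.46 RPKM, and endothelial markers to 0.0645 to 0.0988 and 0.0754 to 0.107. Blood markers summed to 78.3 to 100 and 102 to 106, nearly all CD68, with PTPRC at most 0.0106 RPKM. Exons of other genes lie over 85.8% of CD68, so its reads are uncertain too. Mitochondrial genes took 9.09% to 10.05% of reads with circAASS and 8.86% to 9.03% with empty vector. RN7SK, a nuclear RNA without a poly(A) tail, was at 55.6, 135 and 190 RPKM with circAASS and 34.1 to 44.7 with empty vector. What part the hepatocyte and tubule markers, mitochondrial reads or RN7SK have in the results was not tested.

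Detoxification genes were sparse in these cells, and of those with enough reads most that changed were lower with circAASS. In all, 73 of the 91 stayed under 1 RPKM in every library. A gene was tested with at least 10 reads, scaled to the median library, in any 3 libraries, and 36 of the 91 reached that. Of these, 14 fell with circAASS and 2 rose at an adjusted p under 0.05 (limma), while 20 did not pass. In bulk RNA, fewer cells with a transcript and less of it per cell cannot be told apart. Among all 19350 genes tested, 32.3% changed, 16.3% lower and 16.0% higher, against 44.4% of the tested members, 38.9% lower and 5.56% higher. With library size as the sole scaling the members' split was the same, while that of all genes was 2159 higher and 4023 lower (all genes changed numbered 3091 and 3152 otherwise). Their median log2 fold change was -0.16, beside -0.01 for all genes. In 14 members every circAASS library lay below every empty vector library and in 3 every one lay above, and in 19 the groups overlapped, against 30.3% below and 17.1% above, 47.5% in all, over all genes. The fall was at least 2-fold on the log2(RPKM + 0.1) scale in 3 members, SULT1C2, CYP4V2 and ALDH3B1, and in 1.82% of all genes. By the ratio of mean RPKM, circAASS over empty vector, CYP3A5 (0.427), GSTZ1 (0.422) and GSTO2 (0.387) also fell more than 2-fold. The share of all genes by that ratio was not counted. The count of changed members dropped to 9 (2 higher and 7 lower) when empty vector replicate 3 was left out.

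**Figure D1:**
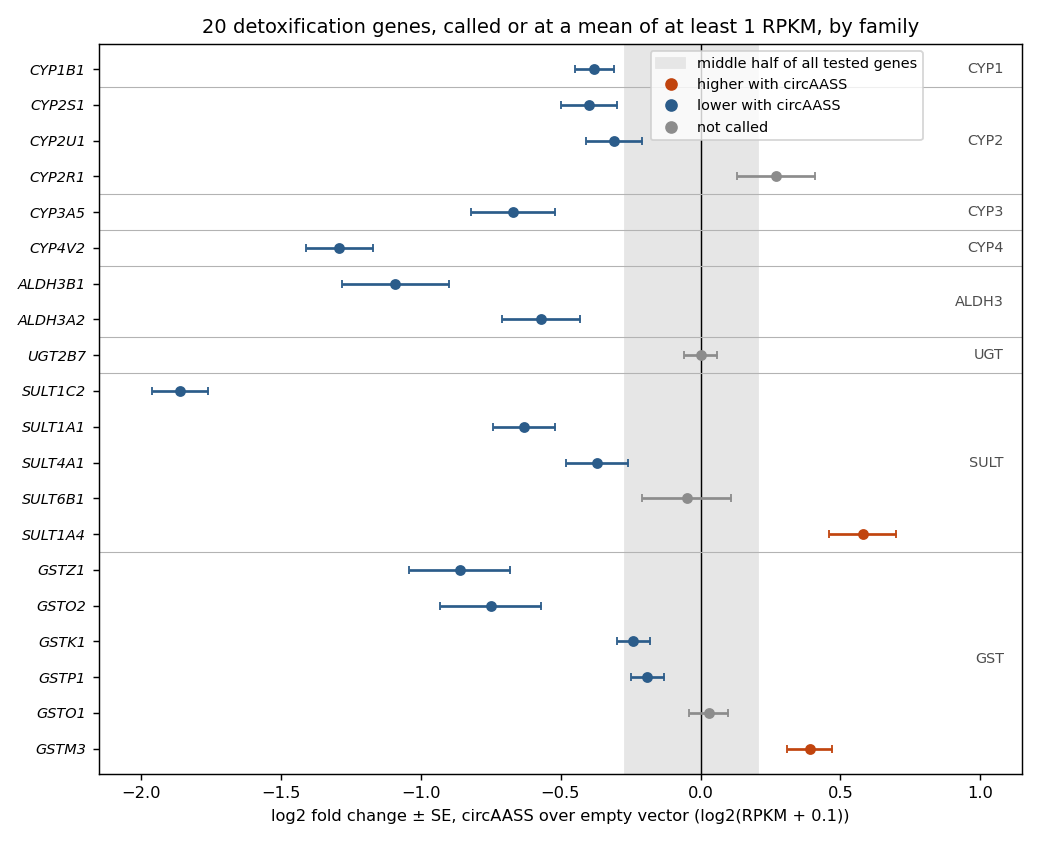
Log2 fold change, circAASS over empty vector, with its standard error, for the 20 detoxification genes that were called or averaged at least 1 RPKM in either group, by family. The grey band holds the middle 50% of all 19350 genes tested. SULT1C2, CYP4V2 and ALDH3B1 lie farthest below it and 14 of the 16 called genes are on the lower side.

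The families differed in the number tested and in level, and differences in their calls were not tested. Of phase I members, 20 of 42 were tested, with 7 (35.0%) lower. Of phase II members, 16 of 49 were tested, with 7 (43.8%) lower and 2 (12.5%) higher. Among all genes tested, 16.3% were lower and 16.0% higher. Glutathione transferases made up 74.2% of the summed RPKM of all 91 genes with circAASS and 71.8% with empty vector, and GSTP1 alone 43.0% and 43.9%. The 91 genes together gave 83.2, 91.1 and 90.1 RPKM with circAASS and 101, 104 and 106 with empty vector. These groups did not overlap, and the two-sided exact permutation p was 0.1, the smallest that 3 libraries against 3 allow. Sums and overlaps were read from deposited RPKM, without the scaling factors used in the fit. Without GSTP1 the glutathione transferases summed to 25.5, 29.1 and 27.9 RPKM with circAASS and 29.7, 28.3 and 28.7 with empty vector, and these overlapped.

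Cytochromes P450 insert an oxygen atom into their substrate with electrons from NADPH. Of the 16 tested, 5 fell (31.2%, beside 16.3% of all genes). The sum of all 34 was 8.34, 8.94 and 8.48 RPKM with circAASS against 10.9, 11.1 and 11.4 with empty vector. CYP4V2, a fatty acid omega-hydroxylase whose loss causes the retinal disease Bietti crystalline dystrophy, was at 0.415, 0.478 and 0.456 RPKM with circAASS and at 1.26, 1.29 and 1.36 with empty vector. All circAASS libraries were far below all empty vector libraries, at a mean of 0.45 ± 0.0325 and 1.30 ± 0.0501 RPKM (SD, n = 3 each), and the log2 fold change was -1.29 ± 0.12 (SE, adjusted p = 0.000508). CYP4V2 lies at chr4:186191520-186213456 on GRCh38. The 250 bases before its RefSeq start are shown because it fell most among the P450s tested. That start, like those of SULT1C2 and GSTZ1, lies inside the gene as GENCODE 29 places it. Capitals mark a match to ACGTG (on the other strand), a core that hypoxia-inducible factors bind. They also mark a match to the core that NRF2 binds (TGACNNNGC). The window is chr4:186191317-186191566 on the plus strand, from RefSeq on GRCh38.p14.
CYP4V2: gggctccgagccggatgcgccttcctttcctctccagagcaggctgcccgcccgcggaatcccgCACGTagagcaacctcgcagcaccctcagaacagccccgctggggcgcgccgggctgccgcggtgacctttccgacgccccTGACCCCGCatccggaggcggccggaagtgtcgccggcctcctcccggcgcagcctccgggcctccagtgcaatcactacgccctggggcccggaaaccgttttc
Of 35114 such windows in the RefSeq table, searched on both strands, 18.5% hold ACGTG and 10.9% hold TGACNNNGC, so a match is common and is a description only.

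CYP1B1, which hydroxylates oestradiol and polycyclic hydrocarbons and is a target of the aryl hydrocarbon receptor, was the P450 with the highest level among those called, at 2.42, 2.45 and 2.35 RPKM with circAASS and 3.27, 3.18 and 3.53 with empty vector. The groups did not overlap, and the log2 fold change was -0.38 ± 0.07 (SE, adjusted p = 0.00797). Exons of other genes lie over 13% of CYP1B1, at chr2:38066973-38109902, and their reads could have been counted for it. CYP2S1, a P450 of epithelia outside the liver, was at 1.19, 1.2 and 1.1 RPKM with circAASS and 1.64, 1.57 and 1.72 with empty vector (log2 fold change -0.40 ± 0.10, adjusted p = 0.0186). CYP2U1, which hydroxylates long-chain fatty acids, was at 1.52, 1.28 and 1.50 RPKM with circAASS and 1.90, 1.95 and 1.81 with empty vector (log2 fold change -0.31 ± 0.10, adjusted p = 0.0487). Each had its circAASS libraries below its empty vector libraries. Neither call held in every fit without 1 library. That of CYP2S1 was lost without circAASS replicate 3 (adjusted p = 0.0558), empty vector replicate 1 (0.053) or empty vector replicate 3 (0.067). That of CYP2U1 was lost when any library other than circAASS replicate 1 was left out (0.0817 to 0.139). The log2 fold changes in the fits without 1 library were -0.43 to -0.35 for CYP2S1 and -0.36 to -0.24 for CYP2U1. With the replicate number as a block, CYP2S1 and CYP2U1 had adjusted p = 0.0507 and 0.0913.

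CYP3A5, the main CYP3A enzyme of adult kidney and an oxidiser of the drug tacrolimus, was scarce, at 0.0867, 0.0868 and 0.103 RPKM with circAASS and 0.184, 0.230 and 0.235 with empty vector. That was 95 and 218 reads in all, with a log2 fold change of -0.67 ± 0.15 (adjusted p = 0.0132). Every circAASS library was below every empty vector library, and the call was absent (adjusted p = 0.108) when all genes were fitted with no minimum of reads. CYP2R1, the vitamin D 25-hydroxylase, was at 1.36, 1.68 and 1.29 RPKM with circAASS and 1.06, 1.29 and 1.38 with empty vector, and the groups overlapped (log2 fold change 0.27 ± 0.14, adjusted p = 0.195). For 9 further P450s tested, adjusted p-values were 0.372 to 0.998.

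**Figure D2:**
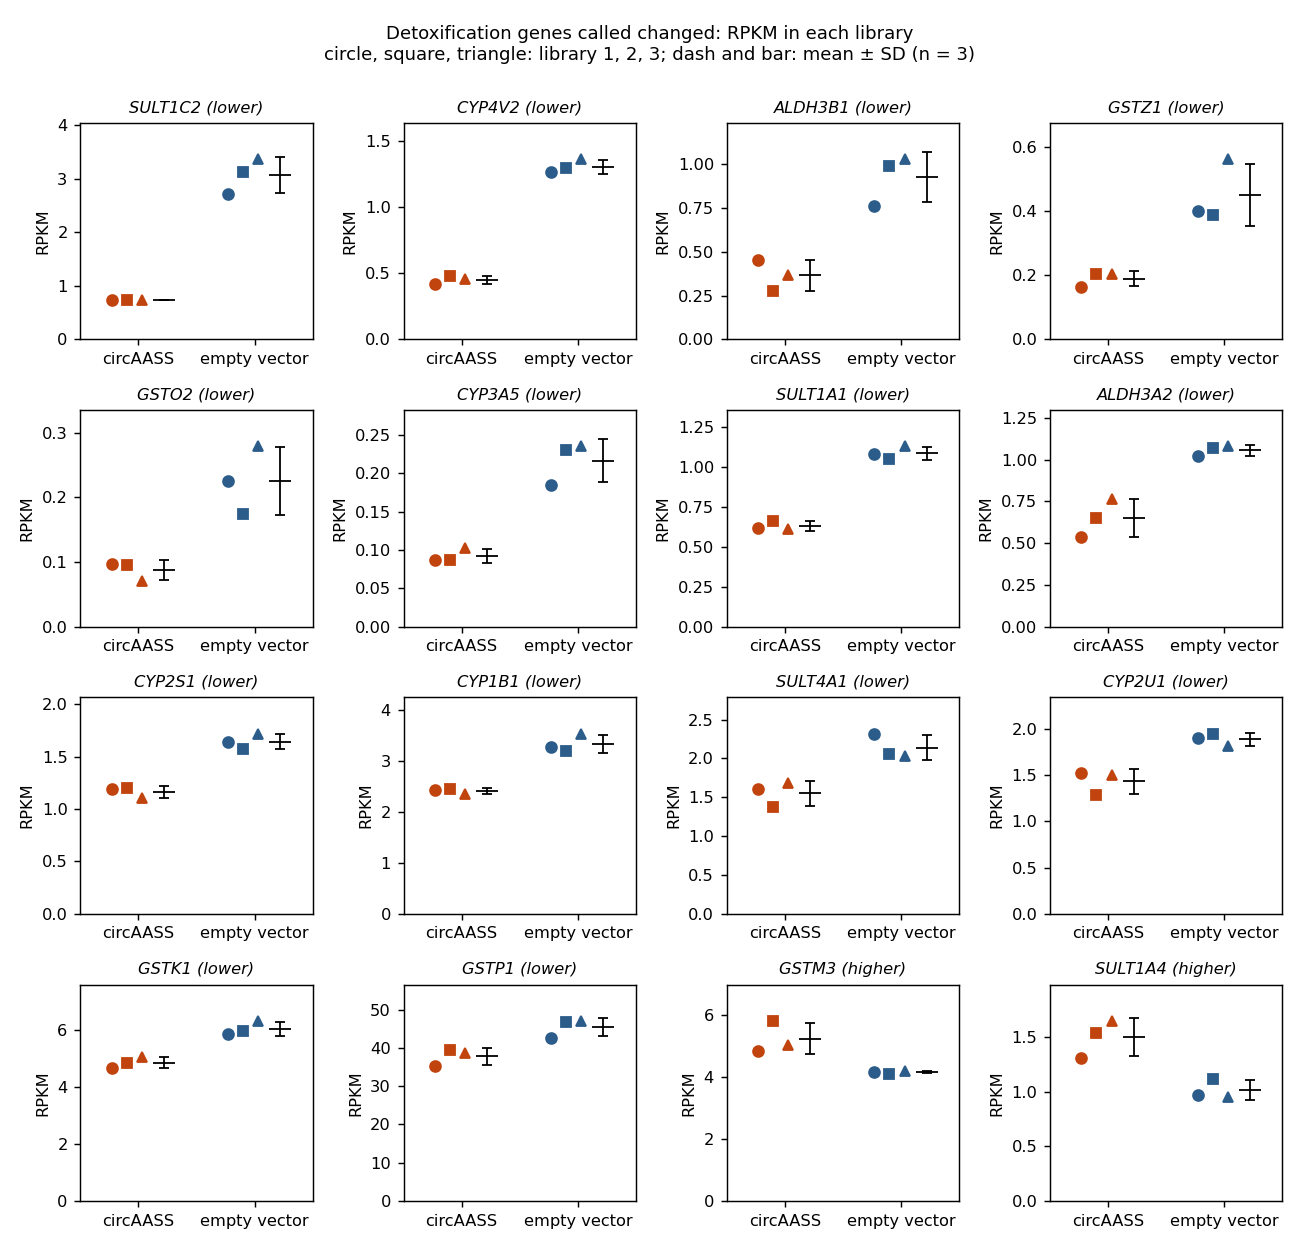
RPKM of each of the 16 called detoxification genes in each library (points) with the group mean and SD, circAASS on the left and empty vector on the right of each panel. GSTM3 and SULT1A4 are higher with circAASS and the other 14 lower; in all 16 the groups do not overlap.

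ALDH3 enzymes oxidise fatty and lipid-derived aldehydes to acids, and both that were tested fell, beside 16.3% of all genes. ALDH3B1, which acts on aldehydes from lipid peroxidation, was at 0.453, 0.278 and 0.366 RPKM with circAASS and 0.762, 0.991 and 1.03 with empty vector. The means were 0.366 ± 0.0878 and 0.929 ± 0.146 RPKM (SD, n = 3 each), and the log2 fold change was -1.09 ± 0.19 (adjusted p = 0.00556). ALDH3A2, the fatty aldehyde dehydrogenase deficient in Sjögren-Larsson syndrome, was at 0.536, 0.65 and 0.765 RPKM with circAASS and 1.02, 1.07 and 1.08 with empty vector (log2 fold change -0.57 ± 0.14, adjusted p = 0.0178). In both genes the groups did not overlap; the ALDH3A2 call was lost without empty vector replicate 2 (adjusted p = 0.0593) or 3 (0.0561). ALDH3B1 lies at chr11:68008578-68029282. The bases before its more upstream start, chr11:68008297-68008546 on the plus strand, are shown as those of the third-largest fall among the 36 genes tested, on the log2 scale, and hold neither core nor that of the aryl hydrocarbon receptor (GCGTG), which is in 32.2% of windows.
ALDH3B1: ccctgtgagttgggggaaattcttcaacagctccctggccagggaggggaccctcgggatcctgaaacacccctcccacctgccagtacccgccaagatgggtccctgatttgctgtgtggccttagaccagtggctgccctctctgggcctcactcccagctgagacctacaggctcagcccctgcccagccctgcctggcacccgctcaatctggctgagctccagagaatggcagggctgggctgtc
The AKR1C enzymes reduce ketosteroids, and AKR1C3 also prostaglandins. Neither AKR1C1 (16.7% of its stretches of 100 bases shared with other genes) nor AKR1C3 passed, at log2 fold changes of 0.13 ± 0.14 and 0.39 ± 0.28 (adjusted p = 0.517 and 0.317), and the 4 AKR1C genes summed to 0.141, 0.263 and 0.2 RPKM with circAASS and 0.0828, 0.135 and 0.176 with empty vector.

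UDP-glucuronosyltransferases attach glucuronic acid. UGT2B7, a main form of kidney and liver that conjugates morphine and steroids, was the sole one of 19 with enough reads, at 5.12, 4.87 and 5.56 RPKM with circAASS and 5.56, 5.30 and 5.46 with empty vector. Its groups overlapped, and the log2 fold change was 0.00 ± 0.06 (SE, adjusted p = 0.989); with library size as the sole scaling it was -0.07. The 9 UGT1A genes share their last exons, 40.6% to 80.0% of each lying under exons of other genes, and had 4 to 10 reads each in the circAASS libraries and 4 to 12 in the empty vector libraries. In each library 5 to 8 of the 9 had the very same read number, so most of these reads cannot be assigned to a single UGT1A.

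Sulfotransferases transfer sulfate from the donor PAPS to phenols, steroids and amines. Of 7 tested, 3 (42.9%) fell and 1 (14.3%) rose, beside 16.3% and 16.0% of all genes. SULT1C2, a cytosolic enzyme for small phenols, fell most of the 36 genes tested, on the log2(RPKM + 0.1) scale. It was at 0.735, 0.731 and 0.726 RPKM with circAASS and at 2.71, 3.13 and 3.36 RPKM with empty vector. The circAASS libraries were nearly alike and all below the empty vector libraries, with means of 0.73 ± 0.00428 and 3.07 ± 0.328 RPKM (SD, n = 3 each). These rested on 942 and 3853 reads, and the log2 fold change was -1.86 ± 0.10 (SE, adjusted p = 0.000115). SULT1C2 lies at chr2:108288639-108309915. The bases before its RefSeq start, chr2:108288645-108288894 on the plus strand, are shown because of that fall; the capitals mark a match to the NRF2 core on the other strand.
SULT1C2: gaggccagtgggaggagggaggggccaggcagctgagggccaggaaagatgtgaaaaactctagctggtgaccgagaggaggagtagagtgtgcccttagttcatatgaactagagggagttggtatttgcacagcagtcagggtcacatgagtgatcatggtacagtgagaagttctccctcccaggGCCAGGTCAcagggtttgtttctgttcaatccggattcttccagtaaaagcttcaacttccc

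SULT1A1, the major phenol sulfotransferase, was at 0.615, 0.664 and 0.614 RPKM with circAASS and 1.08, 1.05 and 1.13 with empty vector. Its groups were well apart (log2 fold change -0.63 ± 0.11, adjusted p = 0.00586). SULT4A1, known mainly from brain, was at 1.6, 1.37 and 1.68 RPKM with circAASS and 2.32, 2.06 and 2.03 with empty vector (log2 fold change -0.37 ± 0.11, adjusted p = 0.0344). The groups did not overlap, but the call was lost without any library other than circAASS replicate 1 (0.0542 to 0.104) and had adjusted p = 0.051 with the replicate block. SULT6B1 was at 1.79, 1.35 and 1.91 RPKM with circAASS and 1.67, 1.64 and 2.17 with empty vector, and the groups overlapped (adjusted p = 0.844).

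SULT1A4 and SULT1A3 are duplicate genes on chromosome 16, at chr16:29459889-29464976 and chr16:30199228-30204310, for the enzyme that sulfates dopamine. SULT1A4 was at 1.31, 1.54 and 1.65 RPKM with circAASS and 0.974, 1.12 and 0.953 with empty vector, and rose (log2 fold change 0.58 ± 0.12, adjusted p = 0.00973). SULT1A3 was at 0.847, 1.11 and 0.832 RPKM with circAASS and 0.865, 0.528 and 0.848 with empty vector, and did not pass (0.36 ± 0.21, adjusted p = 0.214). Of the exon stretches of 100 bases in SULT1A4, 94.9% also occur in SULT1A3, and read-through transcripts cover 85.8% of its exon bases, so the reads of the copies cannot be told apart. Summed, the pair was at 2.15, 2.65 and 2.49 RPKM with circAASS and 1.84, 1.65 and 1.80 with empty vector, with every circAASS library higher (exact permutation p = 0.1, the smallest possible).

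Glutathione transferases couple glutathione to electrophiles. Of 8 tested, 4 fell and 1 rose. GSTP1, the pi-class enzyme and the most abundant of the 91 genes, was at 35.3, 39.5 and 38.7 RPKM with circAASS and 42.7, 46.7 and 47.1 with empty vector. Its groups lay close together without overlap (log2 fold change -0.19 ± 0.06, adjusted p = 0.0386), and the call was lost without circAASS replicate 1 (0.086) or 3 (0.0864) or empty vector replicate 2 (0.128) or 3 (0.12). GSTK1, the kappa-class enzyme of mitochondria and peroxisomes, was at 4.69, 4.84 and 5.07 RPKM with circAASS and 5.87, 5.98 and 6.34 with empty vector, also without overlap (-0.24 ± 0.06, adjusted p = 0.0172, but 0.0544 and 0.0676 without empty vector replicate 2 or 3). GSTM3, a mu-class enzyme, went the other way: it was at 4.86, 5.83 and 5.06 RPKM with circAASS and 4.18, 4.12 and 4.20 with empty vector. All circAASS libraries were higher, at 5.25 ± 0.514 against 4.17 ± 0.0394 RPKM (SD, n = 3 each; log2 fold change 0.39 ± 0.08, adjusted p = 0.00953).

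GSTZ1, the zeta-class enzyme that isomerises maleylacetoacetate in tyrosine breakdown, was at 0.162, 0.203 and 0.204 RPKM with circAASS and 0.400, 0.388 and 0.562 with empty vector. The groups did not overlap (log2 fold change -0.86 ± 0.18, adjusted p = 0.00986). GSTO2, an omega-class reductase of dehydroascorbate, was at 0.0967, 0.0953 and 0.0702 RPKM with circAASS and 0.225, 0.174 and 0.279 with empty vector, 134 and 334 reads in all (-0.75 ± 0.18, adjusted p = 0.0168, but 0.0553 without circAASS replicate 3 and 0.0574 without empty vector replicate 3). Its neighbour GSTO1 overlapped between groups, at 15.3, 17.7 and 16.9 RPKM with circAASS and 18.2, 17.0 and 16.4 with empty vector (adjusted p = 0.804). GSTZ1 lies at chr14:77320884-77331597. The bases before its RefSeq start, chr14:77320786-77321035 on the plus strand, are shown. GSTZ1 was the tested glutathione transferase with the largest fall on the log2(RPKM + 0.1) scale. As a ratio of mean RPKM, circAASS over empty vector, GSTO2 fell more (0.387 against 0.422 for GSTZ1). Capitals mark the pair of GCGTG matches.
GSTZ1: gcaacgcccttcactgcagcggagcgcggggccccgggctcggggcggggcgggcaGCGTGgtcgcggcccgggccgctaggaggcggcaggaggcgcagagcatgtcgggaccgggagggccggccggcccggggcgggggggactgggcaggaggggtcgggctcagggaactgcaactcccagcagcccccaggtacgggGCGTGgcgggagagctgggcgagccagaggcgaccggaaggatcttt
Promoter windows were found for 13 of the 16 called genes. Of these genes, 4 hold GCGTG, 3 hold ACGTG and 3 hold TGACNNNGC before at least 1 listed start. Some of the genes have more than 1 listed start. These are counts of genes, whereas the shares given above are of single windows, so they are not comparable and no enrichment was tested.

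The other 55 members had too few reads to test, at most 15 in any library and at most 0.302 RPKM, and 28 of them had 0 reads in at least 3 libraries. Fitted with no minimum, 2 passed, and both are named after their values were seen. GSTT2B had 0, 2 and 2 reads with circAASS and 15, 10 and 12 with empty vector (adjusted p = 0.0237), and 78.5% of its stretches of 100 bases are shared with GSTT2. GSTA3 had 2 reads in each circAASS library and 0 in each empty vector library (adjusted p = 0.045). CYP1A1, the classical target of the aryl hydrocarbon receptor, had 3, 12 and 10 reads with circAASS and 0, 2 and 0 with empty vector (adjusted p = 0.154).

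Regulators, electron and cofactor suppliers and enzymes of other detoxification families changed in both directions. Of 139 such genes outside the 91, 136 were in the table, 109 were tested, and 42.2% changed, 25 higher and 21 lower, beside the 32.3% of all genes; with library size as the sole scaling the split was 18 higher and 24 lower. The count was 27 without empty vector replicate 2 (24.8%, beside 21.4% of all genes in that fit). In the aryl hydrocarbon receptor gene battery, 2 of 4 tested rose, TIPARP and NQO1 (17.7% of it under exons of other genes), and 1, CYP1B1, fell, though TIPARP and NQO1 had adjusted p = 0.0678 and 0.121 under that scaling and lost their calls without some single libraries (up to 0.0811 and 0.0968). Among all genes tested, 16.0% rose and 16.3% fell. Of 22 regulators tested, 7 rose (31.8%) and 2 fell (9.09%), with a median log2 fold change of 0.16. PPARG, a nuclear receptor of lipid metabolism, was at 2.70, 3.64 and 3.18 RPKM with circAASS and 1.81, 2.02 and 1.77 with empty vector (adjusted p = 0.00268). The small MAF gene MAFG, whose product pairs with NRF2, averaged 9.37 ± 0.386 RPKM with circAASS and 7.76 ± 0.196 with empty vector (SD, n = 3 each; adjusted p = 0.00351). ARNT, the partner of the aryl hydrocarbon receptor and of hypoxia-inducible factors, was at 4.29, 3.87 and 4.27 RPKM with circAASS and 5.51, 5.57 and 5.73 with empty vector (adjusted p = 0.00632), all circAASS libraries being lower. The receptor's own gene, AHR, averaged 2.74 RPKM with circAASS and 2.33 with empty vector and rose (log2 fold change 0.29 ± 0.07, adjusted p = 0.0196). Its call was lost with library size alone (0.07) and without some single libraries (up to 0.0695). Exons of other genes lie over 32.3% of AHR.

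Among electron donors and haem supply of the P450s, 4 of 18 tested rose (22.2%) and 5 fell (27.8%), beside 16.0% and 16.3% of all genes. POR, the reductase that passes electrons to every microsomal P450, was at 4.41, 4.86 and 4.97 RPKM with circAASS and 3.65, 3.43 and 3.62 with empty vector (log2 fold change 0.47 ± 0.07, adjusted p = 0.00238). CYB5A, the cytochrome b5 that also feeds them, averaged 9.64 ± 0.544 RPKM with circAASS and 7.34 ± 0.319 with empty vector (0.46 ± 0.06, adjusted p = 0.00137). ALAS1, the first enzyme of haem synthesis, averaged 12.2 RPKM with circAASS and 8.88 with empty vector and rose (log2 fold change 0.52 ± 0.08, adjusted p = 0.00359). The next enzyme, ALAD, averaged 3.97 ± 0.255 RPKM with circAASS and 5.97 ± 0.208 with empty vector and fell (adjusted p = 0.0021). FECH, which inserts the iron, averaged 3.21 ± 0.19 RPKM with circAASS and 4.6 ± 0.301 with empty vector and fell (adjusted p = 0.00543).

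Cofactor supply of phase II had 4 of 14 higher (28.6%) and 3 lower (21.4%), beside 16.0% and 16.3% of all genes. PAPSS2, which makes the sulfate donor PAPS, was at 10.4, 10.8 and 11.7 RPKM with circAASS and 7.82, 7.77 and 7.91 with empty vector, with every circAASS library higher (log2 fold change 0.55 ± 0.05, adjusted p = 0.000601), whereas 3 of the 7 sulfotransferases tested fell. GCLM, a subunit of the first enzyme of glutathione synthesis, averaged 2.50 ± 0.357 RPKM with circAASS and 1.73 ± 0.0975 with empty vector (adjusted p = 0.0075). Other phase I enzymes had 5 of 32 higher and 8 lower. Aldose reductase, AKR1B1, was at 355, 409 and 413 RPKM with circAASS and 122, 107 and 113 with empty vector (log2 fold change 1.86 ± 0.07, adjusted p = 5.6e-05). EPHX1, the microsomal epoxide hydrolase, was at 56.9, 57.0 and 63.6 RPKM with circAASS and 38.7, 33.2 and 36.1 with empty vector (adjusted p = 0.000421). AKR1B1 exceeded GSTP1 in RPKM in every library. EPHX4, a relative of the epoxide hydrolases, fell: it was at 0.454, 0.55 and 0.431 RPKM with circAASS and 1.53, 1.94 and 1.32 with empty vector (log2 fold change -1.48 ± 0.17, adjusted p = 0.00111). CES2 (10.9% of it under exons of other genes), NQO2 and AKR7A2 also fell, at log2 fold changes of -0.44, -0.46 and -0.53 (adjusted p = 0.0153, 0.0214 and 0.029). All of these 3 lost the call without circAASS replicate 3 (0.0519, 0.0604 and 0.0646), empty vector replicate 2 (0.0574, 0.0546 and 0.0721) or empty vector replicate 3 (0.0514, 0.0729 and 0.0646), NQO2 also without circAASS replicate 1 (0.0548), and NQO2 and AKR7A2 without empty vector replicate 1 (0.0584 and 0.0836). Other P450s had 2 of 11 higher and 2 lower, and other phase II enzymes 2 of 10 higher and 1 lower.

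**Figure D3:**
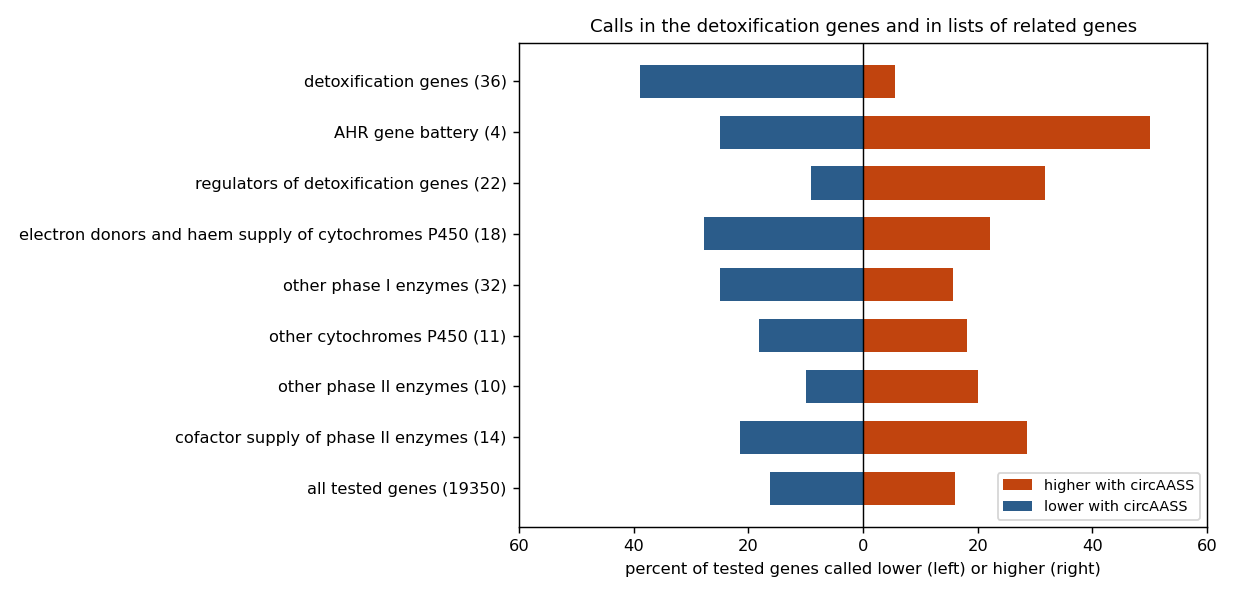
Percent of the tested genes of each list that were higher and lower with circAASS at an adjusted p under 0.05, with the number tested, beside all genes tested. Among the 36 detoxification enzymes tested, 14 fell, 2 rose and 20 did not pass. Among 22 regulators 7 rose and 2 fell, and of all genes tested 16.0% rose and 16.3% fell. The difference between lists was not tested.

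**Figure D4:**
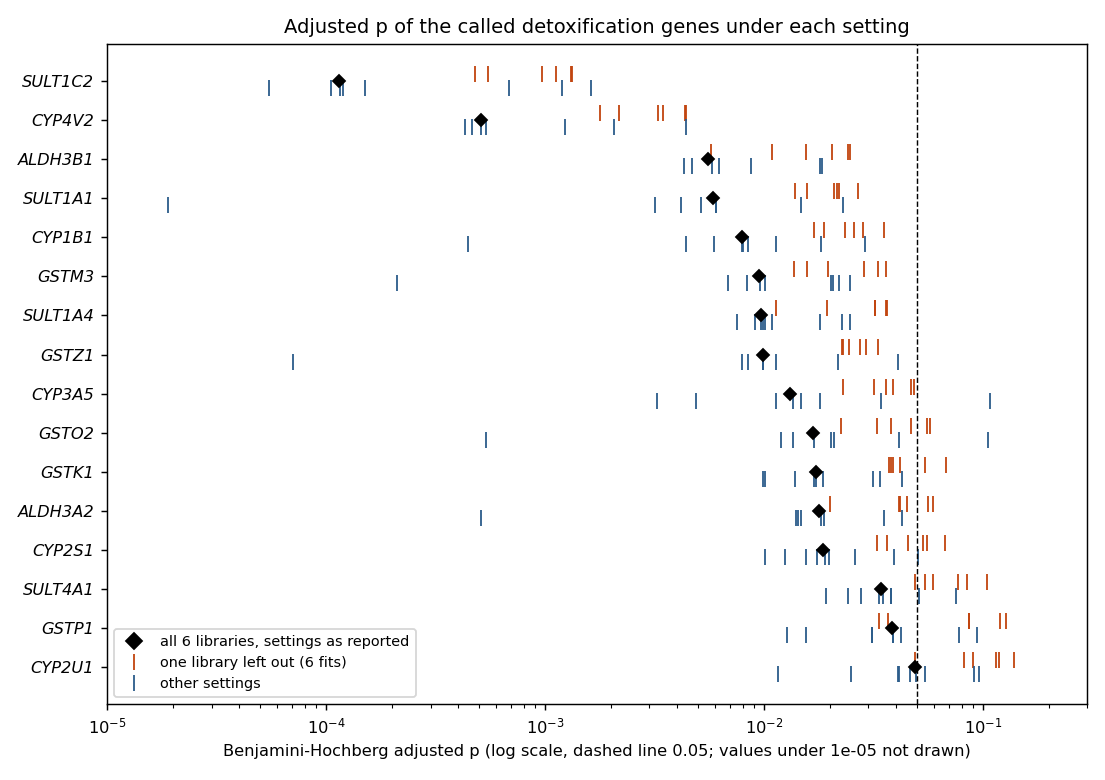
Adjusted p of each of the 16 called genes under the reported fit and each alternative, on a log axis with the 0.05 threshold marked; 3 values under 1e-05 are not drawn. CYP2U1, SULT4A1 and GSTP1 cross the threshold most often.

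The calls of 8 of the 16 held in every alternative fit in which the gene was tested: SULT1C2, CYP4V2, ALDH3B1, GSTZ1, SULT1A1, CYP1B1, SULT1A4 and GSTM3. CYP3A5 also kept its call in all 6 fits without 1 library. None of the 16 changed direction in any of the 15 alternatives.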

How the data were processed

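HK-2 cells were sequenced as stranded mRNA libraries of read pairs, per the labels' protocols. The deposited values are RPKM per gene. The submitters' processing notes name Trimmomatic 0.36, featureCounts, Subread 1.5.1, edgeR 3.12.1 and GRCh38. Of the aligner, annotation and strand setting nothing is given in the sources used here, so reads of overlapping genes are uncertain. Groups and replicate numbers came from the sample titles, and no column was unmatched. Names of 28 of 35035 genes had become dates and were left out.

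Whole reads were recovered from RPKM with GENCODE 29 exon lengths: 22385 of 24697 genes (90.6%) gave whole numbers within 0.02 reads, and other lengths were searched for (10 of the 91 members, GSTP1 and CYP3A5 among them). Recovered reads were 99.72% to 99.74% of the library totals. Mates were counted separately, so 78.6% of read numbers from 1 to 20 were even, and counting error exceeds what the numbers imply.

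RPKM were divided by trimmed-mean factors (0.958, 0.971 and 0.996 with circAASS; 1.02, 1.02 and 1.04 with empty vector; 30% of ratios and 5% of levels trimmed). limma 3.58.1 (R 4.3.3, intensity trend, robust) tested log2(RPKM + 0.1) by group, two-sided, Benjamini-Hochberg adjusted over 19350 genes with at least 10 scaled reads in 3 libraries and 15 in all; fold changes on this scale understate those of low genes. Means, SDs, sums, ratios of means, overlaps and permutation tests are of deposited RPKM, not divided by these factors. The fit was tested on simulated data. Exact permutation tests were two-sided. Positions are GENCODE 29 on GRCh38, counted from 1. Promoters are RefSeq's and were matched by symbol for 70 of 91 members. Python 3.11, numpy 2.4.6, pandas 2.3.3 and matplotlib 3.10.9 were used.

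Members, lists and the naming rule were chosen with earlier results of these data known. Named were all members that passed, those that did not with a mean of at least 1 RPKM in either group, and some of the pathway genes that passed with such a mean; others are said to be chosen after their values were seen, and results of a few genes are not reported here. The design had foreseen count tests, which were not used because the values were RPKM. Same-numbered libraries had deviations correlating at -0.005, -0.024 and 0.023, so numbers did not pair libraries.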

Additional observations from a re-analysis of the deposited data

How the results depend on the processing

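As reported, 16 members changed (2 higher, 14 lower). The number called, not always the same genes, was 16 with pseudocounts of 1 or 0.01 RPKM, with library size alone and with voom on the recovered reads (added after seeing the data), 15 with median-ratio factors, 16 without trend or robust estimation (3 higher, 13 lower, GSTP1 lost), and 13 of 91 with no filter (3 higher, 10 lower; CYP2U1, CYP3A5, SULT4A1, GSTP1 and GSTO2 lost, GSTA3 and GSTT2B added). The count moved with a minimum mean of 1 RPKM, to 9 of 13 tested, which leaves fewer genes to test, and was 9 to 15 with 1 library left out. For all genes changed the count was 4133 to 5674 and for pathway genes 27 to 37 without 1 library, against 6243 and 46; the lowest were both without empty vector replicate 2, and the cause was not tested. With a replicate block, 13 members (2 higher, 11 lower), 36 pathway genes and 5428 of all genes were called; same-numbered libraries correlated at -0.005, -0.024 and 0.023, so the block is not a pairing. Library size alone moved the median of all genes to -0.08 and their split from 3091 higher and 3152 lower to 2159 and 4023.

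No called member reversed. UGT2B7 (0.00) reversed to -0.07 with library size alone and -0.00107 with voom, and lay between -0.03 and 0.04 without 1 library. GSTO1 (0.03) was at -0.05 with library size alone and between -0.02 and 0.07 without 1 library, and SULT6B1 (-0.05) between -0.12 and 0.09. GSTP1 did not pass without trend or robust estimation (adjusted p = 0.0943). With the mean filter, 7 called members were not tested. Of 39 pathway genes that passed with a mean of at least 1 RPKM, 23 kept the call in every fit without 1 library and 0 reversed. The planned edgeR and DESeq2 fits were not run, since the values are not counts. Low read numbers limit the untested 55 members and CYP3A5 and GSTO2, for which small changes are not detectable at this depth.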
